A study of Sus scrofa with 24 samples.

Results

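The genes described here encode the proteins of mitochondrial oxidative phosphorylation. They were taken by symbol from the annotation of the array: all symbols that begin with NDUF, UQCR or ATP5, those that begin with COX followed by a digit, and SDHA, SDHB, SDHC and SDHD. Where several probe sets carried one of these symbols, the one of highest mean over the arrays was used. This gave 61 genes of 13755 with a symbol, which had 97 probe sets in all and more than 1 in 22 genes. Of 83 protein-coding pig symbols in RefSeq (Sscrofa11.1) that match the same rule, 61 were found and 22 had no probe set with that symbol, among them the 3 subunits COX1, COX2 and COX3 that mitochondrial DNA encodes. The named genes therefore describe the nuclear-encoded side of the chain only.

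Total RNA of liver was hybridized to the Affymetrix porcine Snowball array, 1 array for each of 24 fetuses. All belonged to the F2 generation bred from the pig breeds German Landrace (DL) and Pietrain (Pi), carried by F1 sows and collected at 63 days post conception (dpc), and no genetic modification or agent separates them. The array labels name each fetus by a number but give no growth group, sex or dam, so fetuses with intrauterine growth restriction and those of appropriate weight are not compared, and every value is given over all 24 livers. The study chose littermates, so the livers are not fully independent of each other. Values are log2 levels from robust multi-array averaging (RMA), which subtracts background, brings all arrays to a common distribution and combines the probes within a probe set. Levels of different genes depend on their probes and are not set against each other here.

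In the inner mitochondrial membrane, complex I takes electrons from NADH and complex II takes them from succinate. Ubiquinone carries them to complex III and cytochrome c to complex IV, which passes them to oxygen. Complexes I, III and IV pump protons across the membrane, and complex V, the ATP synthase, lets the protons flow back through its membrane part Fo and makes ATP in its catalytic head F1. The complexes are built by assembly factors, and except for complex II they join proteins made on cytosolic ribosomes with a few made on mitochondrial ribosomes. Around this stage of gestation the fetal liver holds hepatocytes as well as blood-forming cells, and whole tissue was used. More cells of a type and more RNA per cell cannot be told apart in such samples.

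A gene was called measured when 18 or more of the 24 arrays gave it a log2 level of 6 or higher. Of the 61 genes, 37 passed, a share of 60.7%, against 24.6% of all genes with a symbol. In complex I 16 of 25 genes passed, in complex II 2 of 3, in complex III 2 of 2, in complex IV 4 of 9 and in complex V 10 of 14. Of 8 genes for assembly and related factors 3 passed. The label liver was checked against hepatocyte markers, of which 20 of 22 passed, with a mean level between 11.11 and 11.40 in the different livers. Of the erythroid markers 18 of 20 passed, of the macrophage markers 5 of 10 and of the granulocyte markers 4 of 5, while 0 of 6 lymphocyte and 0 of 5 biliary markers did. The 95th percentile of the background control probe sets lay between 6.52 and 6.89 on the different arrays, and 18 of the 37 measured genes had a lowest level under the upper end of this range. Even the highest level lay under that end for NDUFS1, NDUFS4, NDUFA10, NDUFAB1, NDUFB2, NDUFB4, NDUFB6, UQCRB and COX7A1. The limit of 6 lies below the whole range, so passing it does not by itself set a gene above the background. For 9 of the 37, the name of the probe set used carries the suffix that marks probes shared with other transcripts. They are NDUFB4, NDUFB8, SDHA, SDHB, UQCR10, COX7A1, COX7A2, ATP5A1 and ATP5C1.

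**Figure D1:**
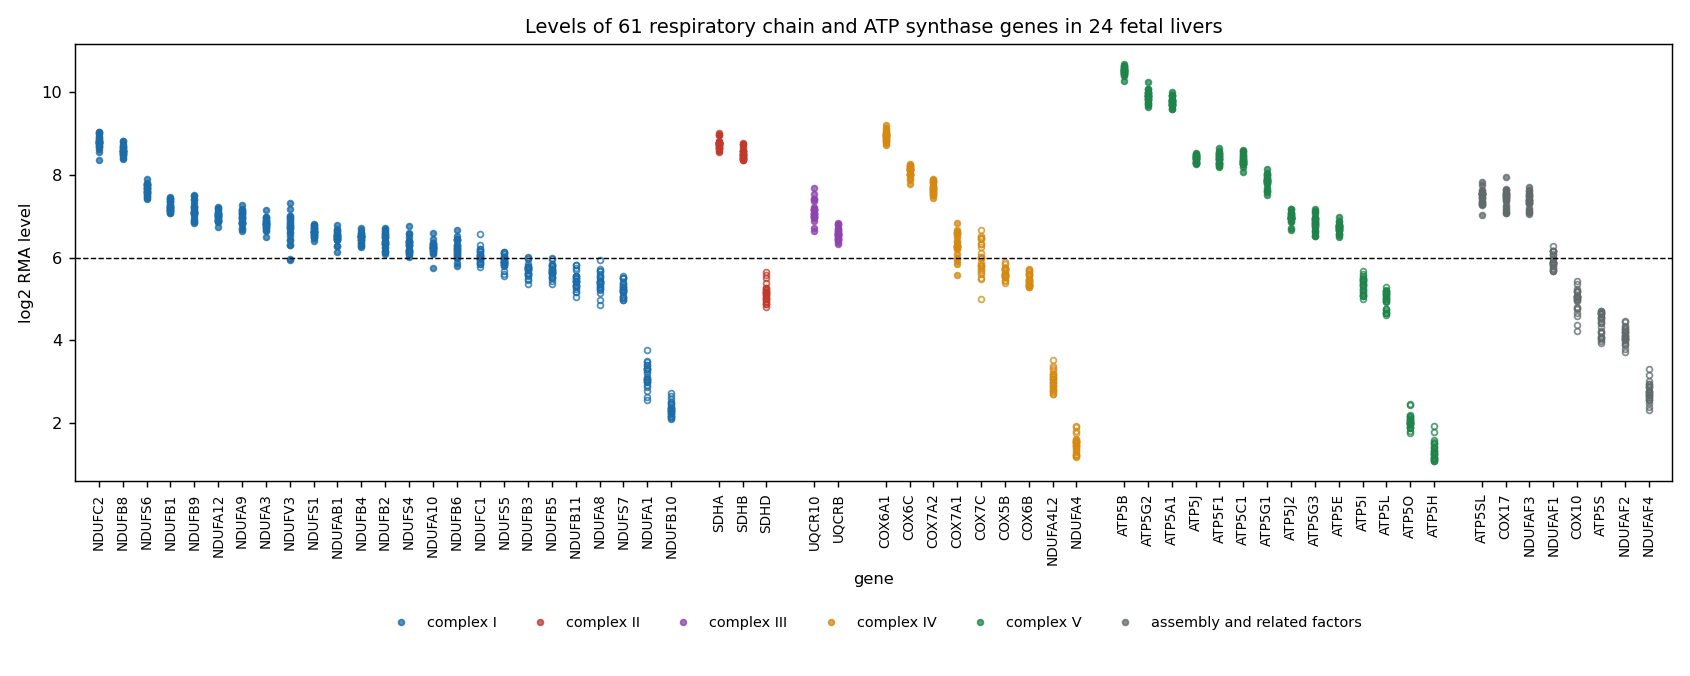
Log2 RMA levels (vertical axis) of the 61 genes, grouped by complex and sorted by median level for legibility, with 1 point for each of the 24 livers. Filled points mark the 37 genes that passed the level limit of 6 (dashed line), and open points the 24 that did not. Most genes vary little between livers, and NDUFV3, COX7A1 and UQCR10 have the widest spread of the filled genes.

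The differences between livers were small in most of these genes. The span, the ratio of the highest to the lowest of the 24 livers, had a median of 1.44-fold over the 37 measured genes, against 1.64-fold over all 3379 genes that passed the same limit. Only NDUFV3, COX7A1 and UQCR10, 3 of the 37, spanned more than 2-fold, against 18.8% of all filtered genes. Spans tended to be narrower at higher levels, but the members were also narrow among genes of like level. In the class with a median level of 8 or more the members' median span was 1.38-fold against 1.58-fold for all genes, and 11 of 12 members lay under the latter. Between 7 and 8 it was 1.55-fold against 1.64-fold, with 7 of 10 members under it, and below a level of 7 it was 1.57-fold against 1.66-fold, with 10 of 15. By complex, the median span was 1.56-fold in complex I, 1.36-fold in complex II, 1.75-fold in complex III, 1.39-fold in complex IV and 1.42-fold in complex V. No test was made of these differences.

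Complex I, the NADH dehydrogenase, had the most named genes. The accessory subunit NDUFV3 had the widest span of all 37 measured genes, 2.63-fold. Its median was 6.74 and its levels lay between 5.94 and 7.33, and fetus 355 was the lowest liver and fetus 281 the highest. The ends of the range were not set by single livers, since the span was 2.56-fold without the lowest liver and 2.35-fold without the highest. A second probe set for NDUFV3 had a median of 6.04, reached the limit on 17 arrays and varied by 1.50-fold, and its r with the first over the livers was 0.0932. The wide variation of this gene therefore rests on 1 of its 2 probe sets.

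The other measured complex I genes varied by 1.31-fold to 1.85-fold. NDUFB6, an accessory subunit of the membrane arm, ranged from 5.79 to 6.68 around a median of 6.22 and reached the limit on 22 arrays. NDUFA10 ranged from 5.75 to 6.59 around 6.25, and its span of 1.79-fold fell to 1.42-fold without fetus 338, the lowest liver. These genes lay close to the limit, where the background overlaps. At the other end, NDUFB1, an accessory subunit of the membrane arm, kept between 7.08 and 7.47 in the 24 livers. NDUFS1, a core subunit that carries iron-sulfur clusters, kept between 6.41 and 6.82, a span of 1.33-fold. All of its levels lay under 6.89, the upper end of the background range, so its narrow span was not read clear of the background. NDUFC2 lay between 8.36 and 9.05 and NDUFB8 between 8.38 and 8.83, both far above the background.

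Of the 9 complex I genes that did not pass, most had a median of 5 to 6. NDUFC1 had a median of 6.03 and reached the limit on 13 arrays, and NDUFS5 had a median of 5.91 with 6 arrays. NDUFS7, the core subunit that holds the last iron-sulfur cluster before ubiquinone, had a median of 5.23, and its highest liver reached 5.55. NDUFA1 and NDUFB10 gave medians of 3.10 and 2.32. Over all complexes, 14 of the 24 genes under the limit had a median of 5 to 6, 4 had one of 3 to 5, 5 had one below 3 and NDUFC1 had one above 6. Every one of the encoded proteins other than NDUFA4L2, ATP5S and the assembly factors is a subunit of a complex, and a low probe signal does not show that its transcript was absent.

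Complex II, succinate dehydrogenase, also belongs to the citric acid cycle and has no subunit from mitochondrial DNA. SDHA, the flavoprotein that oxidizes succinate, ranged from 8.55 to 9.02 with a median of 8.76. SDHB, the iron-sulfur subunit, ranged from 8.37 to 8.77 with a median of 8.50. Fetus 281 had the highest level of both genes. The membrane anchor SDHD did not pass, with levels from 4.82 to 5.65, and SDHC had no probe set with that symbol. The 2 catalytic subunits had r = 0.678 (two-sided permutation test, adjusted p = 0.00128) and rho = 0.588 (adjusted p = 0.0133). Here and below, the adjustment was over 8 pairs of members. These pairs were chosen after their values had been seen, so their p-values are descriptive and no independent support. The r of SDHA and SDHB was 0.637 when the 2 livers with the most extreme SDHA levels were left out. For both genes the name of the probe set used carries the suffix for shared probes.

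SDHA and SDHB were also the only genes with several probe sets that passed, which allowed the arrays to be checked against themselves. The 6 pairs of SDHA probe sets had r between 0.429 and 0.827, and all 6 passed at an adjusted p of 0.0475 or less (two-sided permutation tests, Benjamini-Hochberg over 16 pairs). Of the 10 pairs for SDHB, with r between 0.155 and 0.766, 7 passed. By rho 3 of the 6 and 4 of the 10 passed. Another SDHB probe set, with a median of 4.28, did not reach the limit and is not in these pairs. Its r with the probe set used was 0.0121. Probe sets of a gene can share sequence, so these pairs are not independent readings. The probe sets of 1 gene thus gave unlike orders of the livers in part, and without fetus 281 only 6 of the 16 pairs passed in place of 13.

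Complex III, the cytochrome c reductase, was represented by 2 small subunits only, and both passed. UQCR10 ranged from 6.64 to 7.69 with a median of 7.09, a span of 2.06-fold, with fetus 311 lowest and fetus 352 highest. The span was 1.94-fold without the former and 1.88-fold without the latter, so leaving out either liver brought it under 2-fold. UQCRB, which lies near the ubiquinone site, ranged from 6.32 to 6.84 with a median of 6.56. All its levels lay under 6.89, the upper end of the background range, and the UQCR10 probe set carries the suffix for shared probes. Over the livers the pair had r = 0.461 (two-sided permutation test, adjusted p = 0.0455) and rho = 0.406 (adjusted p = 0.0819), so that only r passed. With each liver left out in turn, this r ranged from 0.401 (without fetus 274) to 0.535 (without fetus 376). It was 0.383 without fetuses 311 and 312. The r of UQCR10 was negative with 14 of the other 36 members, a number that NDUFA3 shared. For comparison, r was positive in 55.9% of all pairs of filtered genes and in 80.3% of the pairs of members. With the mean of the other members UQCR10 had r = 0.263 and rho = 0.397. Its most positive values were 0.658 with ATP5E and 0.594 with COX7A1. The livers of fetuses 311 and 312 were the lowest for UQCR10 and, in the reverse order, for COX7A1.

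Complex IV, cytochrome c oxidase, has tissue isoforms among its nuclear subunits. COX6A1, the form of subunit 6A found in liver, ranged from 8.73 to 9.20 with a median of 8.96. COX7A2, the liver form of subunit 7A, ranged from 7.43 to 7.90 with a median of 7.67. Both varied by about the median of the complex. COX7A1, the form known from heart and skeletal muscle, ranged from 5.58 to 6.84 around a median of 6.29 and reached the limit on 21 arrays, a span of 2.38-fold that fell to 1.98-fold without fetus 312. Its second probe set reached at most 2.73 on any array and had r = 0.113 with the first, so the COX7A1 signal is held by 1 probe set near the background. The isoforms had r = 0.000358 over the livers (two-sided permutation test, adjusted p = 0.999). COX4I1, COX4I2 and COX6A2 had no probe set with their symbol.

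COX6C, a structural subunit, ranged from 7.79 to 8.26 with a median of 8.11. Under the limit, COX7C had a median of 5.99, reached the limit on 11 arrays and varied most of all 61 genes, by 3.18-fold, with a highest level of 6.67. That span was 2.27-fold without fetus 338, the lowest liver. COX5B, which binds zinc, and COX6B had medians of 5.61 and 5.44. NDUFA4, once counted with complex I and now placed in complex IV, gave a median of 1.50.

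In complex V, ATP5J, coupling factor 6 of the stalk, ranged only from 8.27 to 8.52, a span of 1.19-fold and the smallest of the 37. In the catalytic head, ATP5A1 (alpha subunit) ranged from 9.59 to 10.01 with a median of 9.77, ATP5B (beta subunit) from 10.27 to 10.69 with a median of 10.53, and ATP5C1 (gamma subunit) from 8.08 to 8.60 with a median of 8.35. Alpha and beta together form the hexamer around the turning gamma shaft. Over the livers, ATP5A1 and ATP5C1 had r = 0.677 (two-sided permutation test, adjusted p = 0.00128) and rho = 0.72 (adjusted p = 0.00128). The probe sets used for both genes carry the suffix for shared probes. ATP5A1 and ATP5B had r = 0.415 (adjusted p = 0.0691), which did not pass. ATP5E, the small epsilon subunit, ranged from 6.50 to 6.99, and its other probe sets had r of 0.0902 and 0.171 with the one used.

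The ring of c subunits in Fo is made from 3 genes, ATP5G1, ATP5G2 and ATP5G3, whose mature proteins are identical. ATP5G1 ranged from 7.51 to 8.14 with a median of 7.87, ATP5G2 from 9.64 to 10.26, with 9.90 as the median, and ATP5G3 from 6.52 to 7.18 with a median of 6.86. Each spanned 1.54-fold to 1.58-fold, but they did not all follow each other. ATP5G1 and ATP5G3 had r = 0.497 (two-sided permutation test, adjusted p = 0.0354), while rho did not pass (0.451, adjusted p = 0.0643). ATP5G2 had r = 0.0556 with ATP5G1 (adjusted p = 0.911) and r = 0.0841 with ATP5G3 (adjusted p = 0.911). The differences between these correlations were not tested. In all, 4 of the 8 pairs of members passed by r and 2 by rho, and the pairs were chosen after their values had been seen. ATP5I, ATP5L, ATP5O and ATP5H did not pass, the last with a median of 1.29.

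Of the assembly and related factors, COX17, the copper chaperone of complex IV, ranged from 7.07 to 7.96 with a median of 7.47. Fetus 274 alone set its upper end, since the span of 1.86-fold was 1.51-fold without it. ATP5SL, an assembly factor of complex I despite its symbol, lay between 7.04 and 7.84 around a median of 7.51, and its span of 1.75-fold was 1.48-fold without fetus 352, the lowest liver. NDUFAF3, another complex I assembly factor, ranged from 7.07 to 7.70. NDUFAF1, NDUFAF2, NDUFAF4, COX10 and ATP5S did not pass.

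The members varied together weakly. For each gene the correlation over the livers with the mean of the other measured members was computed, after each gene had been standardized to a mean of 0 and an SD of 1. The median r was 0.408, against 0.174 over all filtered genes with the members' mean. An r above 0.5 was found for 12 of the 37, or 32.4%, against 9.06% of all filtered genes. Such values were not particular to the members. In a proteasome list chosen after the values had been seen, the median r was 0.517 and 53.8% of genes lay above 0.5. The members' values ran from 0.0969 for NDUFA3 and 0.157 for NDUFA9 to 0.660 for ATP5C1 and 0.698 for ATP5A1, so no member ran against the rest. Complex V held 5 of the 12, complex I held 6, among them NDUFB8 (0.610) and NDUFAB1 (0.591), the acyl carrier protein of the mitochondrion, and complex II held SDHB (0.503). In complexes III and IV, UQCRB (0.336) and COX6A1 (0.457) had the highest values.

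**Figure D2:**
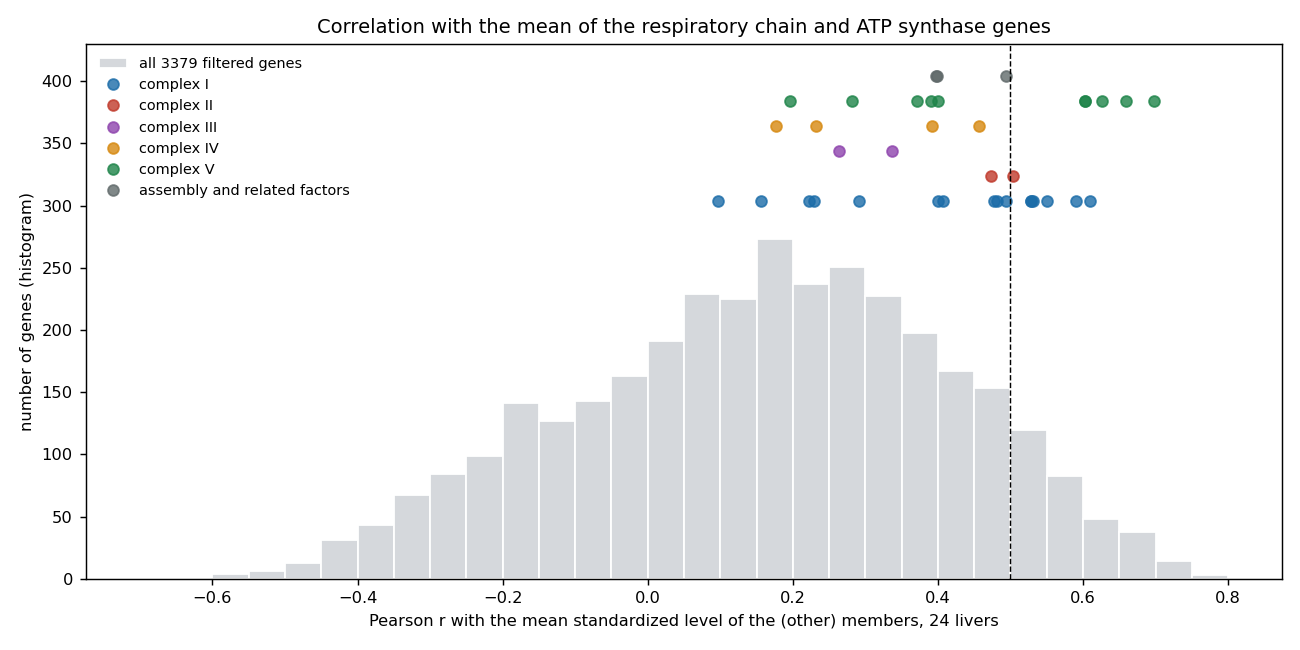
Pearson r over 24 livers with the mean standardized level of the members (for a member, of the other members). Grey bars count all 3379 filtered genes, coloured points show the 37 measured members in 1 row per complex with no meaning to their height, and the dashed line marks 0.5. The members lie between 0.0969 and 0.698, to the right of the middle of the grey distribution.

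The same was seen in the pairs. The mean r over the 666 pairs of measured members was 0.196, and 80.3% of these pairs were positive, against a mean of 0.0434 and 55.9% over all pairs of filtered genes. Subunits of the same complex were hardly closer than subunits of different ones. The mean r was 0.186 within complex I, 0.228 within complex V and 0.225 between complexes I and V. Within complex IV it was 0.0067 over 6 pairs, and only the single pairs of complexes II and III stood higher. When the subunits were averaged by complex, complexes I and V had r = 0.834 (rho = 0.690), I and IV had r = 0.641 and IV and V had r = 0.642. Complexes II and III had r = -0.0091.

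These values rest in part on 2 livers and on a shift shared by the filtered genes as a whole. The members' mean was highest in fetus 281, at 1.14-fold of the genes' own medians, and in fetus 303, at 1.11-fold, followed at a distance by fetus 272 at 1.04-fold. In fetus 281, 36 of the 37 genes lay above their own median, against 62% of all filtered genes, and in fetus 303 it was 31 of 37 against 65%. At the low end, 29 of 37 lay below their median in fetus 355, against 70.1% of all filtered genes, and 27 of 37 in fetus 307, against 65%. In these low livers the members' share was near that of all genes. Fetus 303 had the highest level of 11 of the 37 genes, against 11.5% of all filtered genes, and fetus 281 of 8, against 13.1%.

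All filtered genes were themselves shifted in these livers, by a mean of 0.0482 on the log2 scale in fetus 281 and 0.0648 in fetus 303, and by -0.0804 in fetus 355. The array median over all probe sets went the other way. It was 2.814 in fetus 281, 2.810 in fetus 303 and 2.883 in fetus 355, against 2.840 for the middle of the arrays. When the medians of the arrays over the filtered probe sets were aligned, fetuses 281 and 303 still had the highest members' means, now 1.08-fold and 1.06-fold with 29 and 28 of 37 genes above their median. Fetus 355 was then no longer among the 5 lowest, and fetus 324 was the lowest at 0.953-fold. With this alignment 4 of 37 members had an r above 0.5, against 3.11% of all filtered genes, and the median r was 0.334 against 0.0430. Without fetuses 281 and 303, it was 6 of 37 members against 3.79%, with a median r of 0.223 against 0.115. The members' mean also fell as the median of the array over all probe sets rose (r = -0.528, rho = -0.46). With this array median removed from each gene by regression, the median r of the members was 0.369 against 0.110 for all filtered genes, and 7 of 37 had an r above 0.5, against 5.47%.

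**Figure D3:**
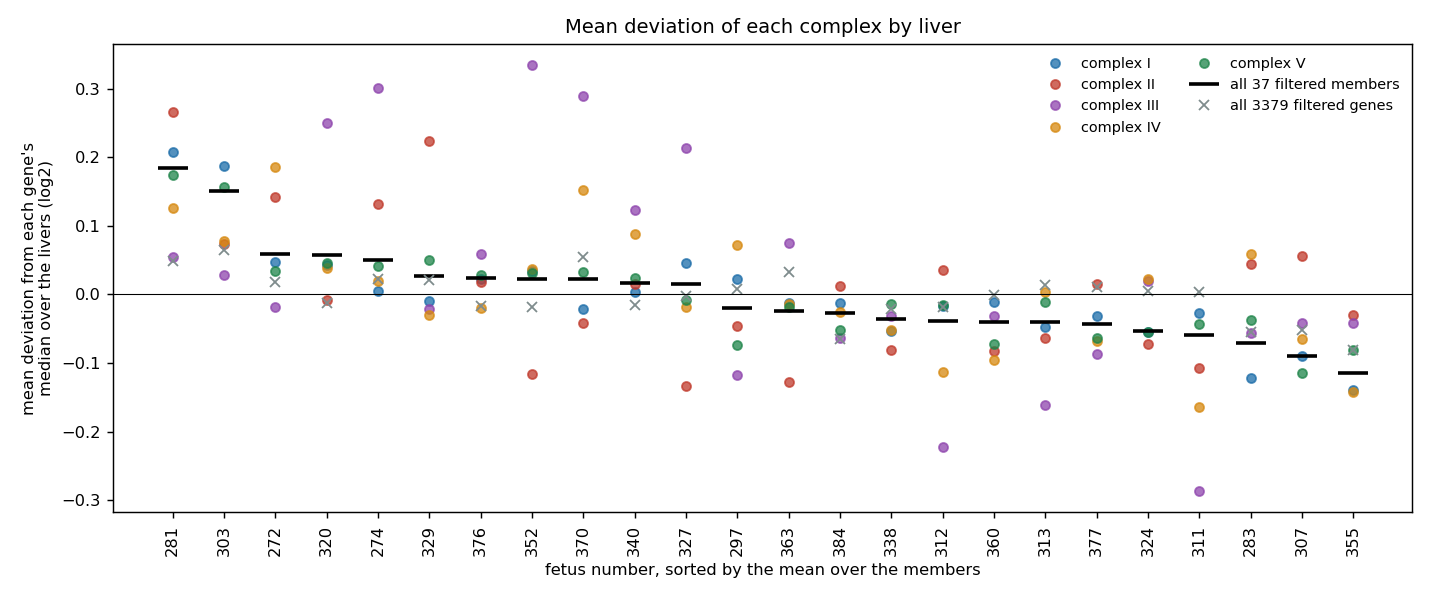
Mean deviation of the measured genes from their own medians (log2, vertical axis) in each of the 24 livers, sorted by the mean over the 37 members (black bars). Coloured points show complexes I to V and grey crosses all 3379 filtered genes. Fetuses 281 and 303 lie apart at the high end, while complex III, with 2 genes, is spread more widely than the others.

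The mean of complex III spread most widely over the livers. It was 0.334 above the gene medians on the log2 scale in fetus 352 and 0.301 in fetus 274, and 0.287 below in fetus 311, while it was only 0.0541 above in fetus 281. Only 2 genes stand behind these means. By rank over the livers it followed complex V (rho = 0.615) and complex I (rho = 0.462), and not complex II (rho = -0.0609), while rho between complexes I and II was 0.203. By r the order was the reverse. Complex III had r = 0.431 with complex V and 0.290 with complex I, and complex II had 0.542 and 0.412 with them. These differences were not tested. Complex II was highest in fetus 281, at 0.267, followed by fetus 329 at 0.224.

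Other mitochondrial genes were followed over the same livers. The mean of 21 mitochondrial ribosomal protein genes, of 58 named, had r = 0.897 with the members' mean (rho = 0.832), 0.863 without the 2 livers most distant from its median and 0.851 without fetuses 281 and 303. With aligned arrays it was 0.841. All 21 had a positive r, and 8 lay above 0.5, led by MRPL17 (0.768), MRPL34 (0.758) and MRPS21 (0.741), while MRPL13 was lowest at 0.090. Of all filtered genes 9.06% lay above 0.5, and their median r was 0.174. The cytosolic ribosomal proteins, of which 38 of 58 passed, had r = 0.336 (rho = 0.216), and 0 of the 38 lay above 0.5. For them r was 0.0324 without fetuses 281 and 303, and the fetus with their highest mean was 303. The difference between these correlations was not tested.

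**Figure D4:**
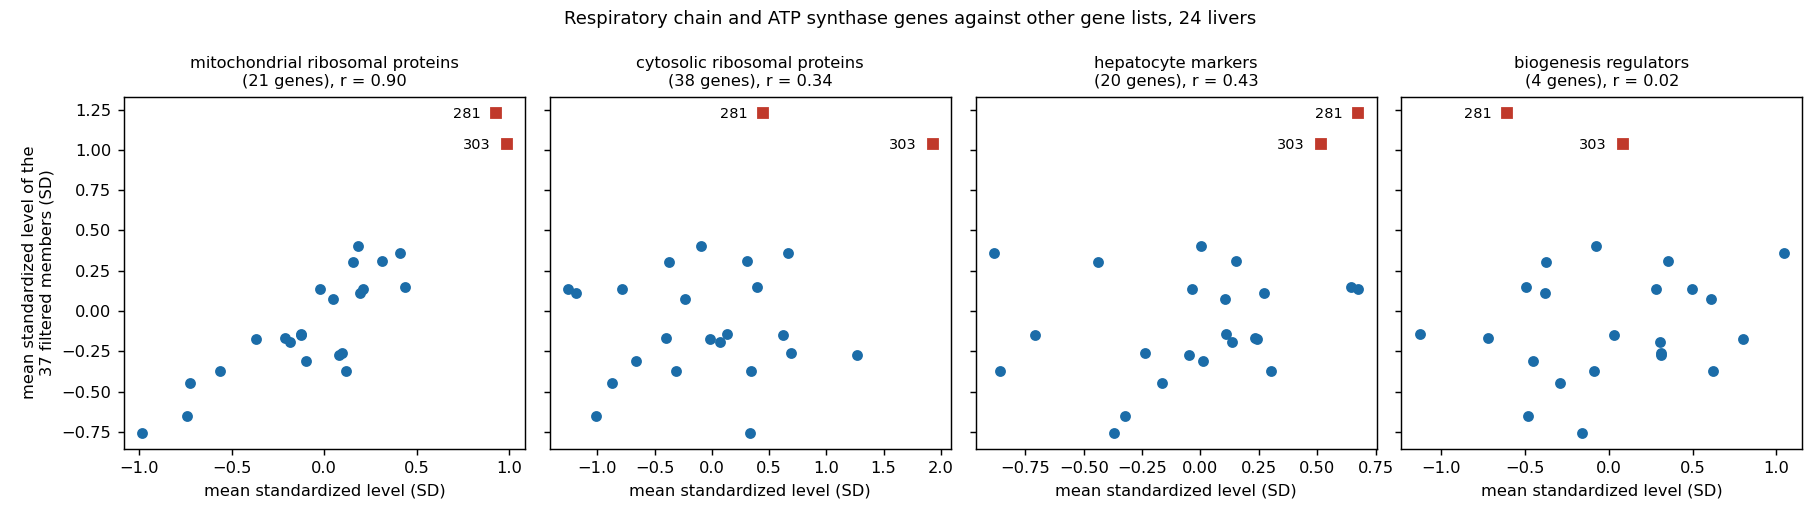
Mean standardized level of the 37 measured members (vertical axis, in SD) against that of 4 gene lists (horizontal axes, in SD) in 24 livers, with fetuses 281 and 303 as red squares. The points follow a line in the panel of the mitochondrial ribosomal proteins (r = 0.897), and in the other panels the remaining livers show no clear order.

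By list mean, the proteins that work beside the complexes lay between the 2 kinds of ribosomal protein, but their lists hold fewer genes. By the median r of single genes they did not lie between 0.353 for the mitochondrial and 0.275 for the cytosolic ribosomal proteins. That median was 0.254 for carriers and porins and 0.366 for assembly factors. For ubiquinone synthesis it was 0.399 and for other routes to ubiquinone 0.378. The 6 carriers and porins that passed, which move phosphate, ADP and ATP, had r = 0.661, led by the phosphate carrier SLC25A3 (0.611) and lowest for VDAC3 (0.196), but r was 0.349 without fetuses 281 and 303. For 6 assembly factors whose symbols the rule does not take, r was 0.753 and 0.527 without these livers, with BCS1L, which inserts the iron-sulfur protein into complex III, at 0.624 and LRPPRC, which stabilizes mitochondrial mRNAs, at 0.0186. For 4 genes of ubiquinone synthesis r was 0.632 and 0.369 without these livers, with COQ9 at 0.733 and COQ4 at 0.0531. For 4 genes whose proteins bring electrons to ubiquinone by other routes it was 0.528 and 0.227, with ETFDH at 0.458 and ETFB at 0.0272. Each of these means thus fell with the same livers left out.

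The regulators of mitochondrial biogenesis showed no clear relation to the members. Of 14 named genes 4 passed, and their mean had r = 0.0240 with the members' mean, and -0.354 with aligned arrays. NRF1, a transcription factor known from other mammals to act on many nuclear respiratory chain genes, ranged from 6.15 to 6.58 and had r = 0.144. TFAM, which packs mitochondrial DNA and takes part in its transcription, ranged from 5.85 to 6.76 and had r = -0.289. PPARGC1A, a coactivator of this programme, did not pass, with levels from 3.67 to 4.94. All 3 lay near or under the limit, where levels overlap with the background.

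Markers of the cell types of the fetal liver were followed in the same way. The mean of 20 hepatocyte markers had r = 0.426 with the members' mean, 0.172 without fetuses 281 and 303 and 0.186 with aligned arrays. HNF4A, a transcription factor of hepatocytes, was highest at 0.404 and APOB lowest at -0.258. The 18 erythroid markers had r = 0.126, with AHSP at 0.435 and HBB at -0.362, and without fetuses 281 and 303 r was 0.375. The mean level of the erythroid markers ranged from 8.75 to 9.42 over the livers and that of the hepatocyte markers from 11.11 to 11.40. For macrophage markers r was 0.294, for endothelial markers 0.422, for stellate markers 0.185, for granulocyte markers -0.132 and for cell cycle genes 0.0888. The part of cell composition in the members' levels was not tested.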

How the data were processed

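The deposited log2 values of 24 arrays and 47845 probe sets were made by the authors with RMA in the Expression Console software, after quality control in GCOS 1.1.1 per the labels. For the probes' genome build, nothing is given in the sources used here. The platform annotation gives symbols for 26426 probe sets. Detection calls were not used here. Arrays have no read depth, and their number limits the precision. The members and the lists were chosen with earlier results of these data known. The genes named are the members with the widest and narrowest spans and the highest and lowest r in each complex, the tissue isoforms, those near the limit, and the ends of each list by r. Other members and pairs were chosen after their values were seen. Pearson's r and Spearman's rho were computed, and tests are two-sided permutation tests with 100000 resamples, Benjamini-Hochberg adjusted, which treat littermates as independent. Correlations of list means carry no test. Alternatives were other limits, other choices of probe set, aligned array medians, rho and left-out livers. The main computations were tested on simulated data. The software was pandas 2.3.3 and numpy 2.4.6 under Python 3.11.15, with scipy 1.17.1 for tests and matplotlib 3.10.9 for figures.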

Additional observations from a re-analysis of the deposited data

How the results depend on the processing

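No paired analysis was possible because the labels give no groups. Promoter motifs were not analysed here. Leaving out fetuses 281 and 303 together and removing the array median by regression were chosen after seeing the data. Under the alternatives, 161 values were counted as unchanged and 44 as moved, with a tolerance that was wide for some. The number of genes passing counted as unchanged at 50 with a limit of 5, against 37. The same holds for 27 with the mean of all probe sets and 25 with the probe set of largest SD. With the mean of all probe sets 8 members had an r above 0.5, against 12, also counted as unchanged.

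With a limit of 7, 20 genes passed, and without a filter all 61 were used. The number with a span over 2-fold was 5 at the lower limit of 5, 0 at the limit of 7, 1 when all 24 arrays had to reach the limit, 7 without a filter, 1 with the mean of all probe sets and 1 without fetuses 311 and 312. It was 2 to 3 with each liver left out in turn, and 2 without fetus 311, 312 or 352. The median span was 1.54-fold at the limit of 5, 1.39-fold at that of 7, 1.56-fold without a filter, 1.55-fold with the mean of all probe sets, 1.56-fold with the probe set of largest SD and 1.41-fold with aligned arrays.

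Without fetuses 281 and 303 the median r was 0.223, 6 members had an r above 0.5, the mean pairwise r was 0.0596 in complex I and 0.0851 in complex V, and 6 pairs of probe sets passed. With aligned arrays the corresponding values were 4 members, 0.101, 0.0942 and 6 pairs. By rho 7 members and 7 probe set pairs passed, and 7 members had an r above 0.5 with the array median removed and 6 with the probe set of largest SD. With each liver left out, the median r ranged from 0.343 (without fetus 281) to 0.463, the number of members above 0.5 from 9 (without fetus 281) to 15, and the number of probe set pairs from 6 (without fetus 281) to 14. In complex II the mean r was 0.346 with a limit of 5 and without a filter, where SDHD entered, and 0.404 with the mean of all probe sets.

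For the mitochondrial ribosomal proteins r was 0.841 with aligned arrays, rho was 0.832, and r was 0.884 to 0.916 with each liver left out. For the cytosolic ribosomal proteins it was 0.0324 without fetuses 281 and 303. For the hepatocyte markers it was 0.186 with aligned arrays and 0.172 without these 2 livers. For the erythroid markers it was -0.0426 with a limit of 7, -0.0383 with the mean of all probe sets, -0.0474 with aligned arrays and 0.375 without these 2 livers. For the biogenesis regulators it was 0.300 with a limit of 5, 0.340 without a filter, -0.354 with aligned arrays and 0.236 without these 2 livers. Their direction depends on the setting.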

Other observations

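Genes outside the respiratory chain that varied with it were looked up after the values had been seen, so the choice of these lists is no independent support. Proteasome genes varied with the members, as the mitochondrial ribosomal proteins did. Of 35 named proteasome genes 26 passed, their mean had r = 0.852 with the members' mean (rho = 0.817), and r was 0.819 without fetuses 281 and 303. Of the 26, 14 had an r above 0.5, against 9.06% of all filtered genes. PSMD8 was highest at 0.737, and 0 were negative. The proteasome genes' median r was 0.517, against 0.353 for the mitochondrial ribosomal proteins and 0.408 for the members themselves. The r of the list mean was lower for the proteasome than for the mitochondrial ribosomal proteins. The proteasome degrades tagged proteins in the cytosol and nucleus and has no part in the chain.

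All 14 named genes of the citric acid cycle passed, and their mean had r = 0.699, or 0.420 without fetuses 281 and 303. Their median r was 0.353 and 2 of the 14 were negative, from IDH3A at 0.560 to IDH3B at -0.291, although both of these encode subunits of the same isocitrate dehydrogenase. For 10 genes of protein import and cristae r was 0.756, or 0.576 without these livers, with IMMT, which holds the cristae junctions, at 0.683 and OPA1, which fuses inner membranes, at -0.301.

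The single gene closest to the members' mean among the 3379 filtered genes was PPIB, a peptidyl-prolyl isomerase of the endoplasmic reticulum, with r = 0.775 and levels from 10.03 to 10.47. The most negative value was that of the gene annotated as MIR328, with r = -0.623 (rho = -0.385) and levels from 12.01 to 12.50.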
